A study of Homo sapiens with 5 samples.

Results

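On the long arm of chromosome 8, in and next to band 8q24, 49 neighbouring genes from TRPS1 to ZFAT were followed in HEK293 cells that stably expressed the phosphatase PRL-1. They are 49 of the 19775 genes that the array annotation names. The stretch was chosen from these same arrays, because MAL2, SAMD12, LRATD2 and EFR3A gave much lower signals in PRL-1 cells. The values of these 4 genes are therefore given as a description, with no test. The other 45 genes were taken by their place along the chromosome, and the question they address is whether the low signals extend to the genes in between. All 122 probesets annotated to the 49 genes, by current or older symbol, were taken in the order of the GRCh38.p14 gene table.

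The tested cells were HEK293 cells, a line of human embryonic kidney origin, stably transfected with pcDNA4-PRL-1 (2 arrays), and the controls were HEK293 cells stably transfected with the empty pcDNA4 vector (3 arrays). Both lines were grown in the same serum-containing medium. Arrays of a group came from replicate cultures of the same stable cells, so an effect of the transgene cannot be told apart from other differences between the 2 transfected lines. The spread behind each p-value is that of cultures. The sources used here do not say whether a line was 1 clone. A further PRL-1 array was left out by the authors because its RNA did not carry more PRL-1 by qRT-PCR.

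Band 8q24 is best known for MYC, a transcription factor that drives growth, and for the wide gene-poor region around it, which holds enhancers of MYC. The band is gained in many human tumours. Other genes of the stretch have unrelated roles. They include subunits of general machineries (EIF3H in translation initiation, RAD21 in cohesin, MED30 in Mediator, TAF2 in TFIID), enzymes of the cell surface and of lipids (EXT1, HAS2, ENPP2, SQLE), secreted CCN proteins and membrane proteins such as MAL2, which carries cargo across epithelial cells.

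Signals were MAS5 intensities, a linear brightness per probeset that the authors scaled to a common trimmed mean of 500 on every array. A probeset was tested when it reached a signal of 100 on at least 2 arrays. Vector replicate 3 stood apart, with correlations of 0.938 to 0.947 to the other arrays on the log2 scale, where the other pairs reached 0.954 to 0.964. Results that rest on it are given with and without it. The 4 tested probesets of PTP4A1, which encodes PRL-1, gave log2 fold changes between 0.06 and 0.15 (lowest limma adjusted p = 0.737), so more PRL-1 RNA was not seen on these arrays. Per the design text, qRT-PCR found more PRL-1 RNA in both of these samples than in the vector samples. Whether the probesets cover the transcript of the transgene was not tested, and every direction below is that of arrays labelled PRL-1. Of the genes listed for HEK293 cells, 5 reached 100 on all arrays, among them NEFL at 28915 or more, while NEFM stayed below 100 on every array. Of 8 markers of other cell types, 4 reached 100 on all arrays (CD3E, PECAM1, COL1A1 and DCN, at most 1048), and PTPRC, ALB and CDH5 stayed below 100 throughout.

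In every tested probeset of the 4 genes that chose the stretch, both arrays labelled PRL-1 lay below all vector arrays. MAL2 gave 99.7 and 93.1 on the arrays labelled PRL-1, against 1713, 1558 and 1747 on the vector arrays. Both arrays labelled PRL-1 lay under 100, so with that group set to 100 MAL2 was at least 16.7-fold lower. LRATD2, a gene of little known function, gave 6.47 and 15.7 on the arrays labelled PRL-1 through its probeset 1, against 3418, 3486 and 3179 on the vector arrays, at least 33.6-fold lower on the same terms. SAMD12, which encodes a sterile alpha motif protein, gave 81.7 and 84.3 on the arrays labelled PRL-1, against 336.6, 329.7 and 414.7 on the vector arrays, at least 3.58-fold lower. EFR3A anchors a phosphatidylinositol kinase complex at the plasma membrane. Its brighter probeset gave 541.2 and 528.3 on the arrays labelled PRL-1, against 1177, 1277 and 1221 on the vector arrays. The other EFR3A probeset gave 185.7 and 182.5 on the arrays labelled PRL-1, against 540.4, 455.6 and 419.4 on the vector arrays. The log2 fold changes of the 2 EFR3A probesets were -1.20 and -1.35. EFR3A thus remained well above 100 in PRL-1 cells, whereas MAL2, SAMD12 and LRATD2 through probeset 1 lay under 100, and in all of these probesets the groups did not overlap.

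The probesets of LRATD2 disagreed. Through probeset 2 the gene gave 403.7 and 377.7 on the arrays labelled PRL-1, against 481.3, 479.2 and 626.5 on the vector arrays, a log2 fold change of -0.43. The last one had signals under 100 on all arrays and was not tested. Since probeset 2 has the higher mean log2 signal over the 5 arrays, it stands for LRATD2 wherever 1 probeset per gene is used.

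**Figure D1:**
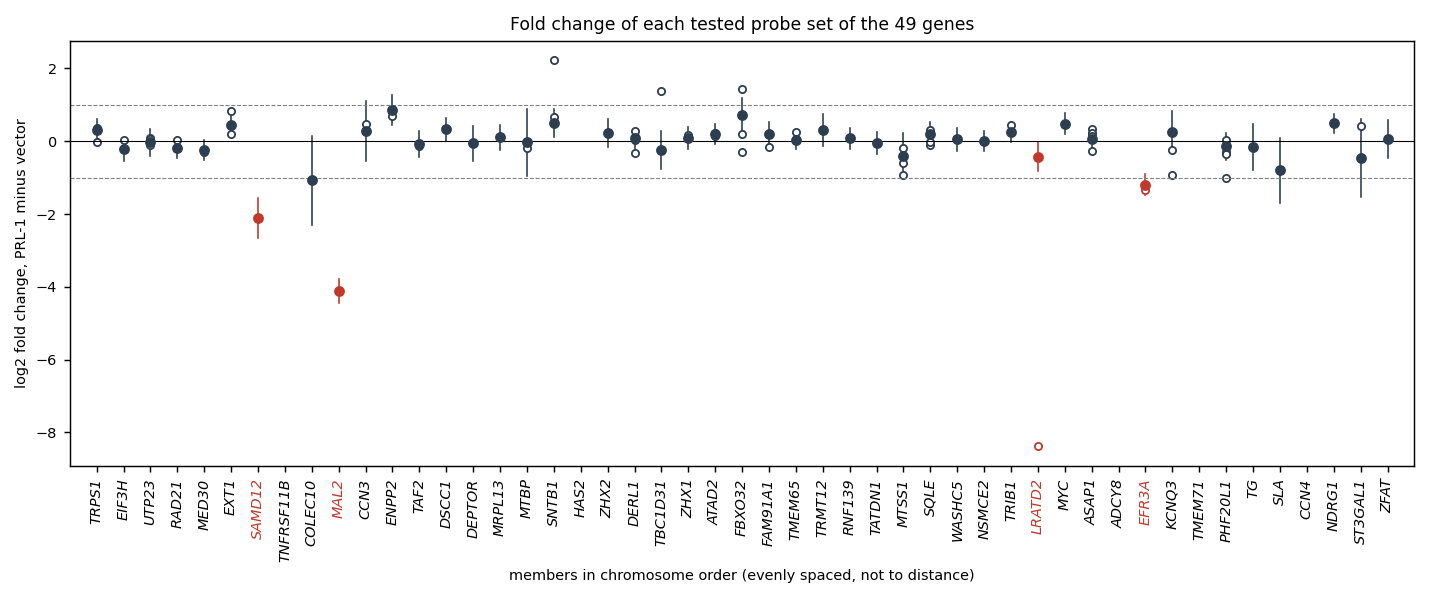
Log2 fold change, PRL-1 minus vector, of each tested probeset (circles) of the 49 genes in chromosome order, with the brightest probeset of each gene filled and its limma 95% interval as a line. Dashed lines mark 1 and -1. The 4 genes in red chose the stretch, and the points of MAL2, SAMD12 and LRATD2 probeset 1 rest on signals under 100 on the arrays labelled PRL-1, so how far down they lie is not a measured size, while the filled circles of the genes between MAL2 and LRATD2 lie from -0.40 to 0.85.

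The low signals did not extend to most genes between them. Of the 45 genes taken by position, 40 had a tested probeset, and limma called 0 of them lower and 0 higher at adjusted p 0.05, where it called 0.206% of all 14546 genes tested lower and 0.0962% higher. At such shares a count of 0 among 40 genes says little about them. At unadjusted p 0.05, 0 of the 40 were lower and 9 higher, where 8.73% of all genes tested were lower and 7.27% higher. With the methods' t-test, run here on the same 33818 probesets and not on the set that passed the presence filter of the methods, 0 of the 40 and 0 of all genes were called in either direction after Benjamini-Hochberg adjustment, at 0.05 and at 0.1. These counts are therefore not those of the methods' full procedure. The t-test count of 0 includes the 4 genes that chose the stretch, so it does not set the 40 apart. By the brightest probeset of each gene, 24 of the 40 lay above 0 and 16 below, where 44.8% of all genes tested lay above and 55.2% below. Their median log2 fold change was 0.07, beside -0.03 over all genes tested. The groups did not overlap for 5 of the 40 with PRL-1 lower (12.5%, beside 17.2% of all genes tested) and for 10 with PRL-1 higher (25%, beside 13.8%).

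A failed call at this sample size leaves room for a change, so the intervals were read as well. For 36 of the 40 genes (90%, beside 82.3% of all genes tested) the 95% interval of the brightest probeset lay wholly above -1, a level that stands for a signal 2 times lower. The 4 whose interval reached further down were COLEC10, MTSS1, SLA and ST3GAL1. COLEC10, SLA and ST3GAL1 were dim genes with group means under 200 on both sides. A fall of the size of that of MAL2, SAMD12 or EFR3A was thus outside the interval of the brightest probeset for most of the 40 genes. This reading rests on 1 probeset per gene and can miss a fall that another probeset shows. It would also pass LRATD2, whose brightest probeset had an interval of -0.83 to -0.03 while its probeset 1 lay far lower. Dimmer probesets of some of the 36 genes had intervals reaching below -1, for example to -2.43 for DERL1, -2.53 for KCNQ3 and -2.38 for PHF20L1. The 40 include members before SAMD12 and after EFR3A. Of the tested members in between, the interval lay wholly above -1 for 23 of 24 between MAL2 and LRATD2. It did so for 2 of 2 between LRATD2 and EFR3A, and for 0 of 1 between SAMD12 and MAL2. For smaller falls the lower bounds differed from gene to gene, for example -0.22 for TMEM65, -0.28 for NSMCE2 and -0.95 for MTBP.

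The 6 genes before SAMD12 had a median log2 fold change of -0.11, between -0.24 for MED30, a Mediator subunit, and 0.43 for EXT1. EXT1, which builds heparan sulfate chains, is the member next to SAMD12. Its brightest probeset gave 970.5 and 903 on the arrays labelled PRL-1, against 644.4, 716.1 and 721.7 on the vector arrays (adjusted p = 0.35). The direction is opposite to that of SAMD12, and the groups did not overlap in any of the 3 EXT1 probesets, whose log2 fold changes were 0.19, 0.43 and 0.82. TRPS1, a zinc finger repressor at the start of the stretch, gave 1148 and 954.5 on the arrays labelled PRL-1, against 877.8, 805.5 and 873.7 on the vector arrays (log2 fold change 0.30, adjusted p = 0.525). Of the remaining genes, the translation factor subunit EIF3H gave -0.23, the cohesin subunit RAD21 -0.19 and UTP23, which acts in ribosome assembly, -0.03, with adjusted p from 0.627 to 0.966. For EIF3H, RAD21 and MED30, by their brightest probesets, both arrays labelled PRL-1 lay below all vector arrays.

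Between SAMD12 and MAL2 the measurements were few. TNFRSF11B, the decoy receptor osteoprotegerin, had signals of 33.1 or less in both of its probesets and was not tested. COLEC10, a collectin, gave 38.8 and 75.2 on the arrays labelled PRL-1, against 113.6, 137.8 and 93.1 on the vector arrays. Its groups did not overlap and its log2 fold change of -1.07 was the lowest of the 40 genes, with an interval of -2.29 to 0.15 (adjusted p = 0.564). Both arrays labelled PRL-1 and vector replicate 3 lay under 100, and the other vector arrays not far above it. Whether this gene was lower therefore cannot be settled here.

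**Figure D2:**
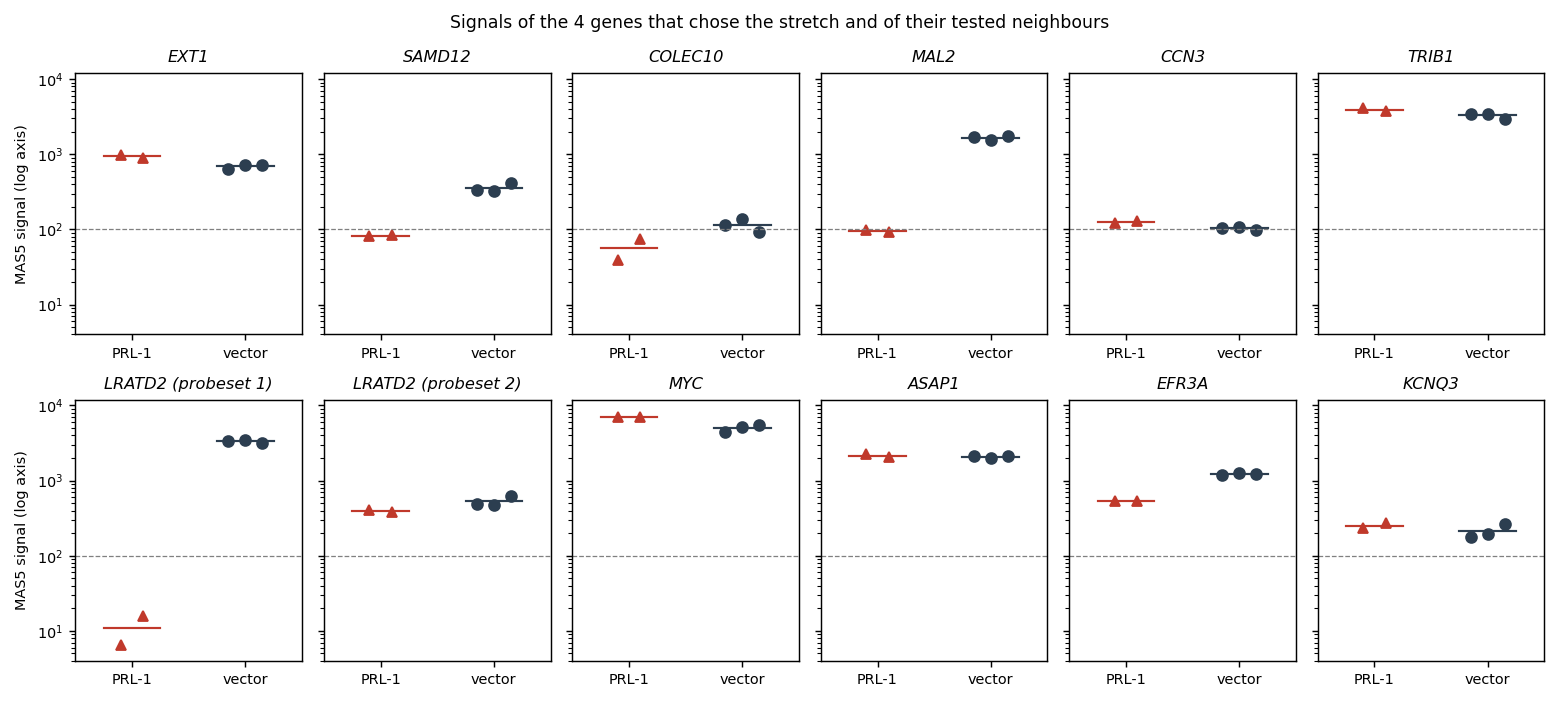
MAS5 signal on a log axis on each array labelled PRL-1 (triangles) and each vector array (circles), with short lines at group means and a dashed line at 100, for the 4 genes that chose the stretch and their nearest tested members. MAL2, SAMD12, LRATD2 (probeset 1) and the dim COLEC10 are under the line on both arrays labelled PRL-1, whereas EXT1, TRIB1 and MYC lie above their vector arrays there.

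Directly after MAL2, CCN3, a secreted matricellular protein, gave 123.2 and 128.4 on the arrays labelled PRL-1, against 104, 109.1 and 97.8 on the vector arrays (log2 fold change 0.28, adjusted p = 0.838). The groups did not overlap, though the signals were dim in both. Neither of the tested members beside MAL2, COLEC10 and CCN3, was bright enough for a close comparison.

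From CCN3 to TRIB1, the 25 members between MAL2 and LRATD2, 24 genes had a tested probeset. Of these 17 lay above 0 and 7 below, with a median of 0.10. HAS2, a hyaluronan synthase, stayed under 100 on all arrays and was not tested. Between MAL2 and LRATD2, counting also genes that are no members, 32 tested genes lay in the gene table, and 0 of them were called. Of all genes tested, 0.206% were called lower and 0.0962% higher, so this count says little.

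By brightest probesets, the highest log2 fold change of the 24 belonged to ENPP2, while dimmer probesets of SNTB1, FBXO32 and TBC1D31, given below, lay higher. ENPP2 encodes autotaxin, the secreted enzyme that makes lysophosphatidic acid. It gave 1619 and 1710 on the arrays labelled PRL-1, against 769.3, 868.2 and 1169 on the vector arrays. The log2 fold change was 0.85 ± 0.18 (SE) with an interval of 0.45 to 1.26 (adjusted p = 0.198). Vector replicate 3 was the highest control, and without it the value was 1.03 and was called (adjusted p = 0.00373). The other ENPP2 probeset gave 681.8 and 803.4 on the arrays labelled PRL-1, against 424.4, 398.1 and 579.7 on the vector arrays, with the same order of arrays between groups (log2 fold change 0.68, adjusted p = 0.306, and 0.0361 without vector replicate 3).

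SNTB1, a syntrophin that links membrane proteins to the dystrophin complex, showed the same order of arrays. Its brightest probeset gave 860.7 and 845.4 on the arrays labelled PRL-1, against 545.2, 554.5 and 739.6 on the vector arrays (log2 fold change 0.49, adjusted p = 0.408, and 0.63 with adjusted p = 0.0462 without vector replicate 3). A dimmer probeset gave 179.2 and 288.6 on the arrays labelled PRL-1, against 31.3, 71.9 and 50.7 on the vector arrays, at least 2.27-fold higher with the vector arrays set to 100 (adjusted p = 0.257). A further one gave a log2 fold change of 0.66 (adjusted p = 0.489). In all 3 both arrays labelled PRL-1 were the highest.

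FBXO32 encodes a ubiquitin ligase subunit of muscle wasting. Its brightest probeset gave 339.1 and 317.5 on the arrays labelled PRL-1, against 225.1, 178.2 and 197.8 on the vector arrays (log2 fold change 0.72, adjusted p = 0.325). Its other tested probesets spread from -0.30 to 1.42. In the last of these vector replicate 2 gave 11.5 while the other vector arrays gave 115 and 164.7, and the log2 fold change was as low as 0.23 with 1 array left out. No direction can be given for the gene as a whole.

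DSCC1, part of a clamp loader that acts in sister chromatid cohesion, gave 1595 and 1654 on the arrays labelled PRL-1, against 1476, 1306 and 1133 on the vector arrays (log2 fold change 0.32, adjusted p = 0.502). DERL1, a channel component for the removal of misfolded proteins from the endoplasmic reticulum, gave 0.08 by its brightest probeset, with 2169 and 1850 on the arrays labelled PRL-1, against 1975, 2035 and 1711 on the vector arrays. Another DERL1 probeset gave 0.29 with groups that did not overlap (adjusted p = 0.48). Its 4 tested probesets ranged from -0.33 to 0.29.

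Several of the genes in the middle of the stretch were nearly level between groups. NSMCE2, a SUMO ligase of the SMC5/6 complex, gave 1069 and 1128 on the arrays labelled PRL-1, against 1040, 1109 and 1154 on the vector arrays, with an interval of -0.28 to 0.27. TMEM65, a protein of the inner mitochondrial membrane, gave 1387 and 1362 on the arrays labelled PRL-1, against 1388, 1317 and 1325 on the vector arrays, with an interval of -0.22 to 0.29. For WASHC5 (the strumpellin subunit of the WASH complex), TATDN1, RNF139, ZHX1, MRPL13 and TAF2 the log2 fold changes lay between -0.08 and 0.11. For ATAD2, a bromodomain ATPase, the 4 probesets gave 0.13 to 0.22. ZHX2, a homeobox repressor, gave 0.22 and FAM91A1, which acts in vesicle capture at the Golgi, 0.20, while MTBP, a regulator of replication origins, gave -0.02 at dim signals. SQLE, squalene epoxidase of sterol synthesis, gave 0.19 by its brightest probeset, TRMT12, a tRNA-modifying enzyme, 0.30, and DEPTOR, an inhibitor of mTOR, -0.06. MTSS1, which bends membranes at actin structures, was the lowest of the 24 at -0.40 (adjusted p = 0.685), and all 4 of its tested probesets lay below 0, from -0.93 to -0.20.

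TRIB1 precedes LRATD2 in the stretch and encodes a pseudokinase that directs C/EBP proteins to degradation. It gave 4106 and 3739 on the arrays labelled PRL-1, against 3486, 3428 and 2993 on the vector arrays. Its log2 fold change was 0.25 with an interval of -0.02 to 0.52 (adjusted p = 0.537), and a dimmer probeset gave 0.46. In both, the arrays labelled PRL-1 lay above all vector arrays, on the opposite side to LRATD2.

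MYC, the next member after LRATD2, gave 6970 and 6952 on the arrays labelled PRL-1, against 4370, 5188 and 5548 on the vector arrays. The groups did not overlap. The log2 fold change was 0.47 ± 0.13 (SE) with an interval of 0.19 to 0.76 (adjusted p = 0.288), and 0.55 without vector replicate 3 (adjusted p = 0.0437). The array holds 1 probeset of MYC with a single gene symbol in the annotation used. ASAP1, an activator of Arf GTP hydrolysis, gave 2260 and 2040 on the arrays labelled PRL-1, against 2096, 2013 and 2100 on the vector arrays, and its 5 probesets spread from -0.26 to 0.34. ADCY8, an adenylyl cyclase next to EFR3A, stayed under 100 on all arrays and was not tested. The tested members on both sides of LRATD2 therefore were not lower. Genes that are no members were less clear. Of the 6 such tested genes between LRATD2 and EFR3A, 4 lay below 0 and 2 above, with a median of -0.39. For 3 of them the interval left out a signal 2 times lower. POU5F1B, the tested gene directly after LRATD2, gave 49 and 250.3 on the arrays labelled PRL-1, against 210.8, 241.9 and 179.4 on the vector arrays. Its log2 fold change was -0.92 with an interval of -2.25 to 0.41.

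After EFR3A, 7 of 9 members had a tested probeset, with a median log2 fold change of -0.14. KCNQ3, a potassium channel subunit next to EFR3A, gave 232.5 and 270.3 on the arrays labelled PRL-1, against 180.1, 193 and 262.7 on the vector arrays by its brightest probeset (log2 fold change 0.26, adjusted p = 0.769). Its dimmer probesets gave -0.24 and -0.92, in the second of which replicate 1 labelled PRL-1 gave 30 and replicate 2 gave 171.8. PHF20L1, a reader of methylated lysine, gave 542.5 and 694.9 on the arrays labelled PRL-1, against 611.1, 694.1 and 734.8 on the vector arrays (log2 fold change -0.14, adjusted p = 0.814). Of its 6 tested probesets 5 lay below 0, and none was called. They ranged from -1.001, in a dim probeset, to 0.05. In the probesets at -1.001, -0.36, -0.33 and -0.30 both arrays labelled PRL-1 lay below all vector arrays.

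NDRG1, a gene induced by hypoxia and stress, was the highest of the members after EFR3A. It gave 7566 and 7115 on the arrays labelled PRL-1, against 5038, 4975 and 5718 on the vector arrays. The log2 fold change was 0.49 ± 0.11 (SE) with an interval of 0.23 to 0.74 (adjusted p = 0.232), and 0.55 without vector replicate 3 (adjusted p = 0.0189). SLA, an adaptor of lymphocyte signalling, was the lowest by brightest probesets, with 66.4 and 132.6 on the arrays labelled PRL-1, against 155.9, 186.2 and 150.3 on the vector arrays (log2 fold change -0.80, adjusted p = 0.551). Thyroglobulin (TG) gave -0.16, the sialyltransferase ST3GAL1 -0.46 by its brightest probeset and ZFAT 0.06, with adjusted p from 0.791 to 0.955. The other tested ST3GAL1 probeset gave 0.42 (adjusted p = 0.785), so no direction can be given for that gene. TMEM71 and CCN4 did not reach 100 on 2 arrays in any probeset.

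**Figure D3:**
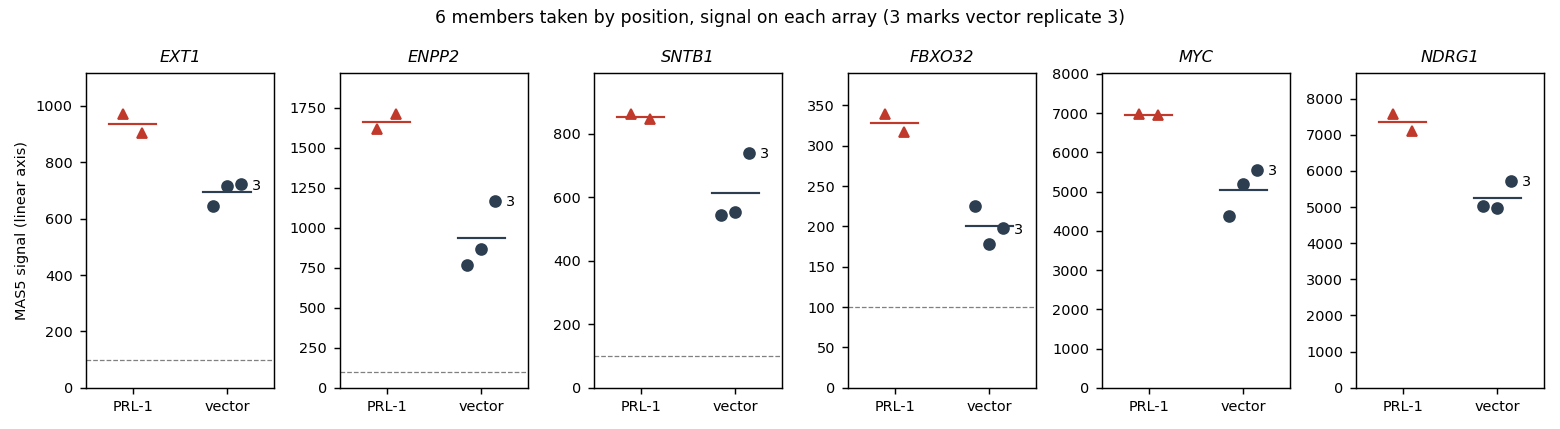
MAS5 signal on a linear axis from 0 for 6 members taken by position, on each array labelled PRL-1 (triangles) and each vector array (circles), with short lines at group means. Vector replicate 3, marked 3, is the control nearest to the arrays labelled PRL-1 for EXT1, ENPP2, SNTB1, MYC and NDRG1, for example at 1169 beside 769.3 and 868.2 for ENPP2, and a dashed line stands at 100 where shown.

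Without vector replicate 3, limma called 4 of the 40 genes taken by position, all higher (ENPP2, SNTB1, MYC and NDRG1), where it then called 0.901% of all genes tested higher and 0.797% lower. None of the 40 was called lower in that fit. For these 4 genes vector replicate 3 gave the highest of the vector signals by the brightest probeset. The part of that array in the result was not tested beyond leaving it out.

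Probesets of a gene often differed. Of 27 members with more than 1 tested probeset, 13 had log2 fold changes of both signs. Of the 89 tested probesets of the genes taken by position, 70 had a group mean of at least 200, and only 1 of these passed 1 in size, the SNTB1 probeset at 2.23. Of the 19 with both group means under 200, 4 passed 1 in size. These were COLEC10 (-1.07), PHF20L1 (-1.001), FBXO32 (1.42) and TBC1D31 (1.39), and in the first 2 the groups did not overlap. TBC1D31, a centrosomal protein, is an example, at 1.39 in a probeset where vector replicate 3 gave 8.81 and the other arrays 91 to 137.1, and at -0.25 in its brightest probeset, which gave 341.7 and 385.6 on the arrays labelled PRL-1, against 323.4, 451.2 and 549.4 on the vector arrays.

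**Figure D4:**
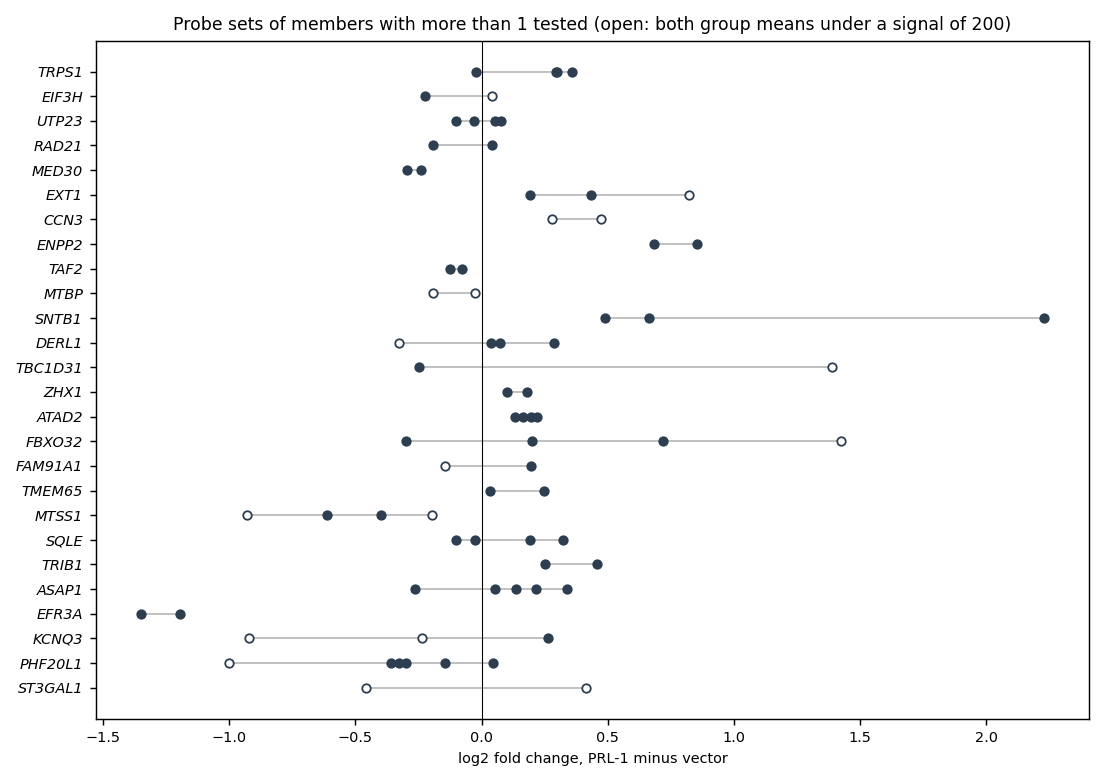
Log2 fold change, PRL-1 minus vector, of every tested probeset of 26 members with more than 1, in chromosome order from the top, with LRATD2 left out because of its scale. Open circles have both group means under 200, and the open circles of TBC1D31 and FBXO32 reach 1.39 and 1.42.

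The gene table holds further genes between TRPS1 and ZFAT, of which 33 are named on the array and 20 were tested. Limma called 0 of these 20, where it called 0.206% of all genes tested lower and 0.0962% higher. At unadjusted p 0.05 it gave 1 lower and 0 higher, beside 8.73% and 7.27% of all genes tested. The methods' t-test called 0 of the 20 and 0 of all genes. These counts do not set the 20 apart from all genes. Their median log2 fold change was -0.15, with 7 above 0 and 13 below. The 95% interval lay wholly above -1 for 12 of the 20 (60%, beside 82.3% of all genes tested), so for the other 8 a fall to a signal 2 times lower was within the interval. PVT1, a noncoding RNA gene beside MYC, was the lowest, with 72.9 and 46.1 on the arrays labelled PRL-1, against 95.3, 152.7 and 137.4 on the vector arrays (log2 fold change -1.12, adjusted p = 0.506). FAM83A gave -1.11 in 1 of its probesets (adjusted p = 0.531) and 0.09 in the other, and PTCSC1, a noncoding RNA gene, gave -0.56 (adjusted p = 0.568). NDUFB9, a subunit of respiratory complex I, was bright, with 8360 and 7929 on the arrays labelled PRL-1, against 8826, 9195 and 10103 on the vector arrays (log2 fold change -0.20, adjusted p = 0.605).

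Along the whole chromosome, the running median over 21 tested genes lay between -0.19 and 0.10 within it, and between -0.28 and 0.18 over the rest of chromosome 8. The 40 tested genes that flank the stretch, 20 on each side, gave a median of 0.06. Limma called 1 of them, KLF10, a zinc finger factor of the TGF-beta response, with 3126 and 3338 on the arrays labelled PRL-1, against 1674, 1743 and 2000 on the vector arrays (log2 fold change 0.84, adjusted p = 0.045). Among all genes tested, 0.0962% were called higher and 0.206% lower. Medians of single chromosomes ran from -0.17 for chromosome 10 to 0.16 for chromosome 20, and chromosome 8 lay at -0.03.

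**Figure D5:**
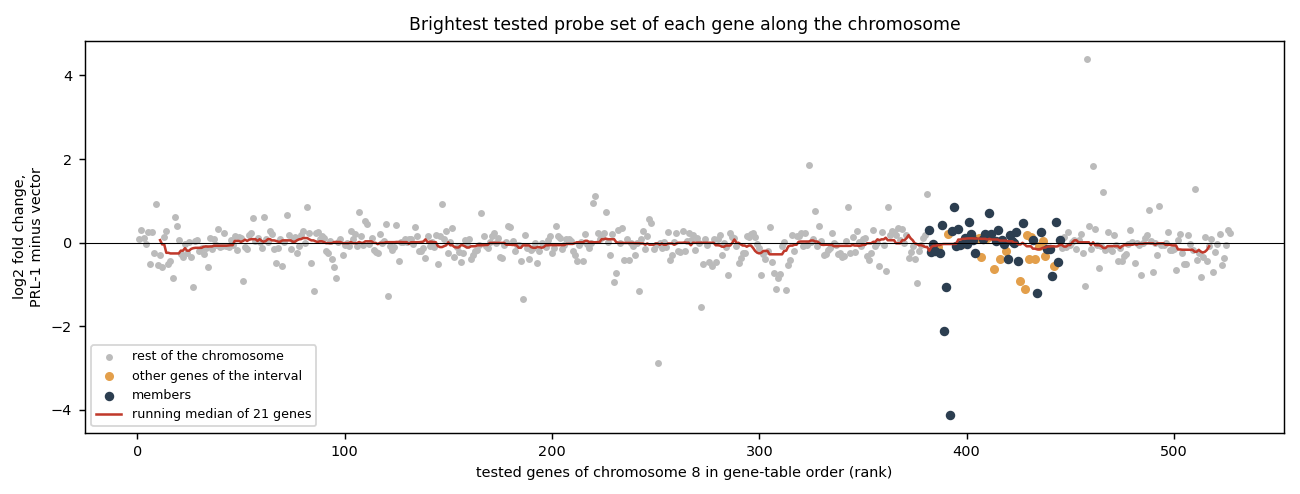
Log2 fold change, PRL-1 minus vector, of the brightest tested probeset of each of 527 genes of chromosome 8, by rank in the gene table, with members, other genes of the interval and the rest in separate colours and the running median of 21 genes as a line. The line stays close to 0 through the stretch while SAMD12 and MAL2 stand far below it at points that rest on signals under 100 on the arrays labelled PRL-1, and LRATD2 stands at -0.43 because its other probeset is the brighter one on average.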

How the data were processed

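The values are MAS5 intensities per probeset of HG-U133 Plus 2.0 arrays on a linear scale, as deposited by the authors, who ran the affy software with its defaults. MAS5 removes a background taken from mismatch probes, averages the probes of each probeset robustly and scales the array, and all 5 arrays have the same mean, 500, once the outer 2% on both sides are dropped. Low signals carry much noise. Arrays have no read depth, and their number limits the precision.

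After 62 controls, 33818 of 54675 probesets reached a signal of 100 on at least 2 arrays and were tested. Gene names came from the platform annotation (41091 probesets with 1 symbol, 1801 with several, 11721 not listed), brought up to date with the GRCh38.p14 gene table, which gave the order along the chromosome. Coordinates are left out, as no build is stated for the array. TRMT12 stands there as TYW2.

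The log2 signals entered limma 3.58.1 (R 4.3.3; lmFit, eBayes with an intensity trend, group as the only term, two-sided), with Benjamini-Hochberg adjustment over all 33818 and calls at 0.05. A gene was called where at least 1 of its probesets was, and for levels the probeset with the highest mean log2 signal stood for it. The script was tested on simulated data. The members, lists and alternatives were chosen with earlier results of these data known. Per-array signals are given for the 4 genes that chose the stretch, their neighbours, the 8 further members with the smallest adjusted p and members whose probesets differ in sign with 1 past 0.5. NSMCE2, TMEM65 and SLA were added after their values were seen. Alternatives covered the filter, a log offset of 32, quantile normalization, median centring, the trend, array weights, a replicate block, each array left out, the methods' t-test (on the probesets tested here, not after the presence filter of the methods) and the choice of probeset.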

Additional observations from a re-analysis of the deposited data

How the results depend on the processing

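With 2 arrays against 3 the calls moved with the settings. The number of probesets called was 65, and it was 9 without the intensity trend, 275 with array weights, 448 with the replicate block, 0 with the methods' t-test (on the same 33818 probesets, without the presence filter of the methods) and 11 to 313 with each array left out in turn, 313 without vector replicate 3. Of the 49 genes, 4 were called lower, which are the 4 that chose the stretch, so that this count is a description and not a test of them, against 2 without the trend, 0 with the methods' t-test and 2 to 4 with an array left out. None was called higher, against 2 with array weights, 5 with the replicate block (where 1.29% of all genes tested were higher and 1.16% lower) and 0 to 4 with an array left out. The block in effect drops vector replicate 3, whose number has no partner. Replicate numbers were taken only as names of the arrays, as the labels state no pairing. Deviations from the group means correlated at 0.064 and -0.059 between arrays of the same number. With 2 PRL-1 arrays their deviations mirror each other, so these values cannot decide whether the numbers pair arrays. The median log2 fold change of the 44 tested members was 0.05, and -0.032 without probesets ending in _x_at or _s_at. For members between MAL2 and LRATD2 it was 0.10, and it was 0.14 with median centring, 0.075 without those probesets and 0.095 to 0.19 with an array left out. Over the alternatives for 50 single probesets, 631 values kept direction and side of the threshold, 13 gained a call, 21 lost one and 24 changed sign. The sign changes fell in 11 probesets, of which 0 were called. With each array left out in turn, the log2 fold change ran from -0.39 to 0.34 for the dimmest TRPS1 probeset, from -0.17 to 0.25, from -0.040 to 0.19 and from -1.42 to 0.77 for 3 of DERL1, from -1.13 to 0.53 for 1 of FBXO32, from -0.13 to 0.56 and from -0.020 to 0.13 for 2 of ASAP1, from -2.18 to 0.34 and from -0.55 to 0.080 for 2 of KCNQ3, and from -0.32 to 0.036 and from -0.089 to 0.15 for 2 of PHF20L1. The TRPS1 probeset, at -0.02 in the values as reported, gave 0.028 with quantile normalization, 0.018 with median centring, 0.095 with array weights and 0.20 with the replicate block. The first DERL1 probeset gave -0.041 with array weights and -0.041 with the block, and the second -0.0013 with the block. Noise at signals near or under 100 limits what can be said of COLEC10, CCN3, SLA and the members not tested, and the causes of these shifts were not tested.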

Other observations

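By chromosome, limma called 7 of the 527 tested genes of chromosome 8 lower in PRL-1 cells (1.33%), beside 0.206% of all genes tested. The counts include the 4 genes that chose the stretch, so the share is a description. The other 3 genes, RUNX1T1, FABP5 and TCF24, lie outside the stretch. On the chromosome 2 genes were called higher, KLF10 and EPPK1, where 0.0962% of all genes tested were. Between neighbouring called genes of the stretch lay 2 tested genes from SAMD12 to MAL2, 32 from MAL2 to LRATD2 and 8 from LRATD2 to EFR3A.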
